A study of Mus musculus with 22 samples.

Results

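The hypothalamic neuropeptide genes Pomc, Agrp, Cartpt, Gal, Pmch, Hcrt, Avp, Oxt, Trh and Crh were followed in whole mouse brain at P1 (postnatal day 1) and E15 (embryonic day 15). The genes were chosen by name, and a probe belonged to one of them when its name or accession in the array files was that gene or an older synonym of it. Of the 10 genes, 9 had a probe and Crh was not analysed here. Cartpt had 2 probes, giving 10 probes of 41174 on the array and 9 genes of 21124 with a symbol.

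Animals labelled as knockouts of Agtr2, the gene of the type 2 angiotensin II receptor, were set against control animals on 22 arrays, each holding 1 knockout and 1 control RNA in the dyes Cy3 and Cy5. At P1 there were 4 numbered knockout animals and control RNA under 4 numbers on 8 arrays, and at E15 there were 8 knockout and 6 control animals on 14 arrays. The RNA was taken from whole brains cut frozen into slices. The groups are told apart as knockout and control, and which stretch of Agtr2 the deletion covers is not given in the sources used here.

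Neuropeptides are cut from longer precursor proteins, packed into dense granules and released to act on receptors coupled to G proteins. Most of these precursors are made by small groups of hypothalamic neurons that govern feeding, water balance, arousal, birth and milk release, stress and thyroid activity. In whole brain such a group is a small part of the RNA, and fewer cells of a type cannot be told apart from less RNA per cell.

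The levels are normalised array signals in arbitrary units, and a fixed offset of 50 units was added before the logarithm, so that a probe with little RNA stays near that floor and its ratios are drawn towards 0. Signals of different probes have no common scale, so no gene's level is set against another's. A change is a difference of log2 signals or a log2 ratio of knockout over control, with its standard error (SE), and the adjusted p is that of limma after Benjamini-Hochberg adjustment over all features, with a threshold of 0.05. Median spot signals per array were 68.4 to 117.4 units at P1 and 75.3 to 134.0 units at E15, over local backgrounds of 37 to 39 and 39 to 43.5 units. Probes of all 10 neuronal markers on a textbook list were measured, and so were those of all 14 markers of meninges and connective tissue and all 12 of skeletal muscle.

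Agtr2 itself changed by 0.11 at P1 (SE 0.08, n = 4, adjusted p = 0.722 by limma) and by -0.40 at E15 (SE 0.30, n = 8, adjusted p = 0.778 by limma). The place of its probe relative to the deletion is not given, so its signal does not check the labels.

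The labels number the knockout animals at P1 but not the controls. A P1 control number here is that of the knockout on the same arrays. Whether both control channels of a number hold 1 animal is not given in the sources used here, so the 4 P1 controls are 4 numbers, whose averages may join different animals. Over the 2000 most variable features, the deviations of both channels of a number correlated between 0.02 and 0.70 for the P1 knockouts and between -0.42 and 0.11 for the P1 controls. The E15 animals read by both dyes on the same scan day gave 0.51 to 0.85 for knockouts and 0.52 to 0.79 for controls. E15 controls 3 and 6 were labelled on arrays of scan day 3 and again on arrays of scan days 1 and 2, and their channels correlated between -0.53 and -0.05 across those days. The control age changes of Pomc, Gal, Avp, Cartpt, Pmch and Hcrt are therefore also given from the channels of a single dye, in which no channels are averaged within a number at P1.

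All P1 arrays were scanned on 1 day with another version of the scanner software than the E15 arrays, so age, scan day and software version cannot be told apart. At E15 knockouts 1 to 4 were scanned on day 3 and knockouts 5 to 8 on days 1 and 2.

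The 9 genes lie on different chromosomes, except that Avp and Oxt are neighbours that face each other on opposite strands of chromosome 2. The 100 bases before the annotated start are shown for Pomc, Gal, Pmch, Hcrt, Avp and Oxt, from RefSeq on build GRCm38.p6. The 5 bases ATAAA, the core of many TATA boxes, are in capitals.
Pomc, chr12:3954845-3954944, plus strand: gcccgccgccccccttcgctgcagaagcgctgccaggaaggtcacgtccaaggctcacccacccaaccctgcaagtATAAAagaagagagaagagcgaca
Gal, chr19:3414545-3414644, minus strand: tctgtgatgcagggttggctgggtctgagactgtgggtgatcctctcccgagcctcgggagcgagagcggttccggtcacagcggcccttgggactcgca
Pmch, chr10:88090972-88091071, plus strand: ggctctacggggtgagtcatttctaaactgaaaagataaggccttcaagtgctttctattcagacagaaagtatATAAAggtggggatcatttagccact
Hcrt, chr11:100762932-100763031, minus strand: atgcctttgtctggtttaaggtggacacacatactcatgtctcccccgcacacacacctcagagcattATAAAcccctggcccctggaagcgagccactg
Avp, chr2:130582589-130582688, minus strand: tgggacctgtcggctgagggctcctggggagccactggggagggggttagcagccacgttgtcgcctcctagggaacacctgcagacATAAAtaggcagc
Oxt, chr2:130576069-130576168, plus strand: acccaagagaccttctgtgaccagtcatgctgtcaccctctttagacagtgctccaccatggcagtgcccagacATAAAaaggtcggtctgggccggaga

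All sequences run 5′ to 3′ on the strand of the gene. Of the 8 genes found in the promoter table, 5 held ATAAA on the gene's strand in this window, and none held its reverse complement TTTAT. Among all 32851 promoters of the table, 11.0% held ATAAA on the gene's strand and 17.5% held it on either strand. Its first base lay 24 bases before the start in Pomc, 26 in Pmch and Oxt, 32 in Hcrt and 13 in Avp. Gal, whose window holds no such run, was shown because its signal passed the test of age. The windows of Cartpt and Trh, which are not shown, hold no such run either.

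Whether a spot is well above background was taken from the marks of the scanner software. The Pomc, Agrp, Gal, Hcrt, Avp and first Cartpt probes were well above background in every channel of both ages. The Oxt probe and the second Cartpt probe missed 1 of the 14 E15 control channels each. The Pmch probe was well above background in 7 of 8 P1 knockout and 5 of 8 P1 control channels, and in 12 of 14 E15 knockout and 14 of 14 E15 control channels. Trh, the precursor of thyrotropin-releasing hormone, had the fewest, with 6 of 8 P1 knockout and 7 of 8 P1 control channels and 9 of 14 E15 knockout and 10 of 14 E15 control channels well above background. No spot was saturated. The Hcrt spot was marked as an outlier on 6 of 8 P1 arrays and left out there, and the first Cartpt spot on 1. Among all spots other than array controls, 287 to 3343 were marked per P1 array, against 52 to 381 per E15 array. Whether the marks follow signal, age, scan day or software version was not tested.

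Raw spot signal over local background put the same picture in other terms. Its median over channels was 11.8 at P1 and 6.85 at E15 for Hcrt, 6.31 at P1 and 10.3 at E15 for Gal, and 2.25 at P1 and 4.04 at E15 for Pomc. For Avp it was 2.91 at P1 and 2.18 at E15, and for Trh 1.69 at P1 and 1.72 at E15.

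**Figure D1:**
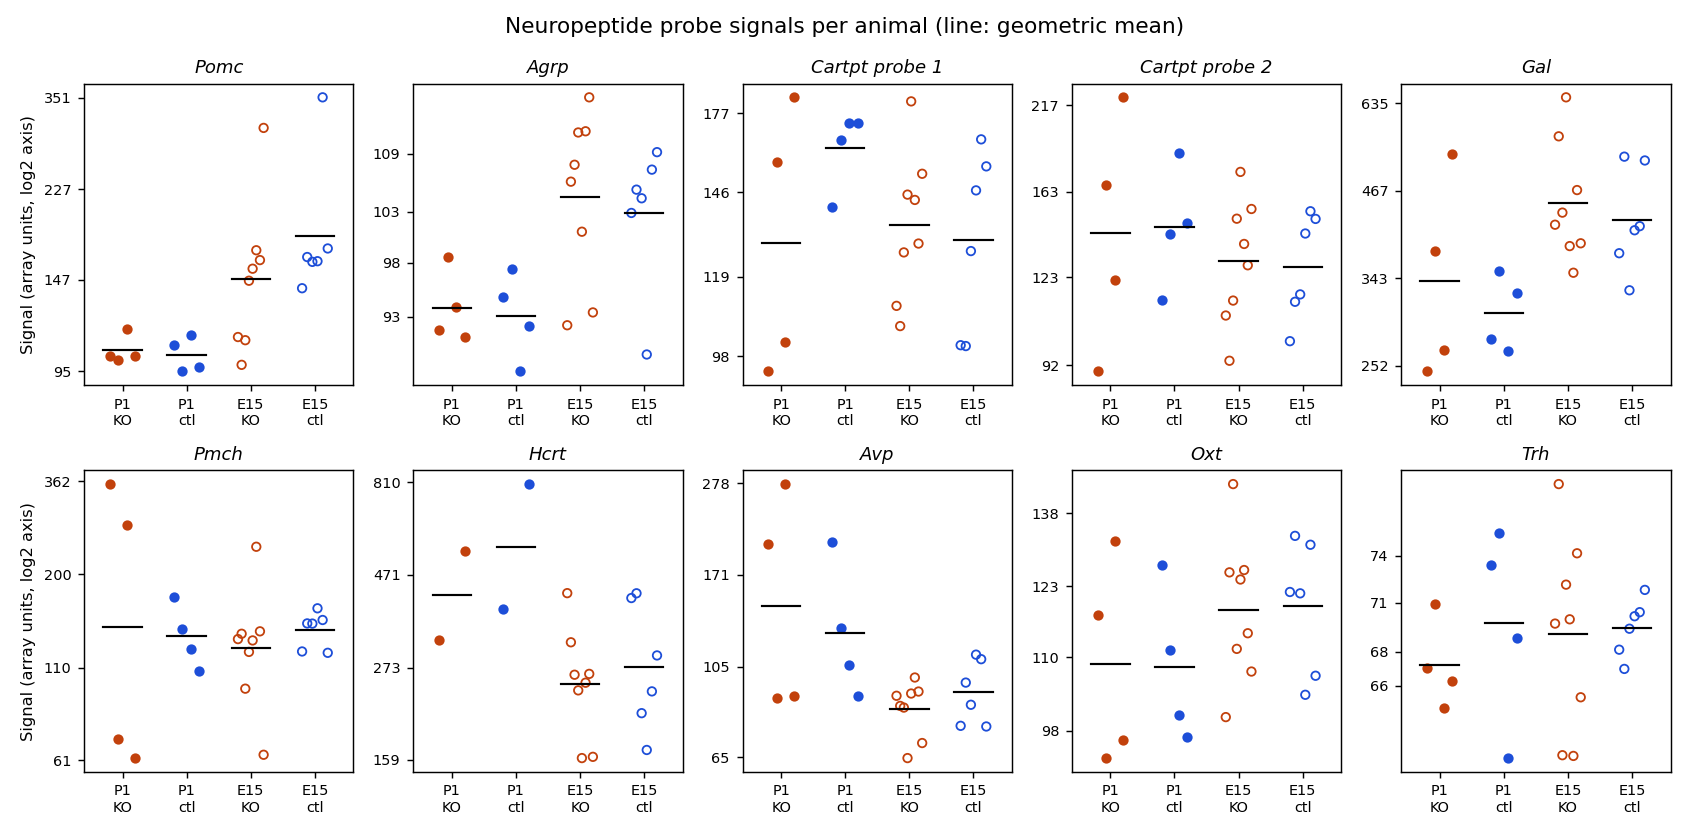
Normalised signal of each neuropeptide probe (array units, log2 axis) in P1 knockout, P1 control, E15 knockout and E15 control animals, with a point per animal and a line at the geometric mean. Pomc is low in all 8 P1 animals, from 94.9 to 116.1 units, and Pmch spreads from 61.9 to 355.9 units among P1 knockouts.

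Of the 9 genes, 2 changed with age in control animals, and both were lower at P1: Pomc and Gal. No gene rose by this test. The share called among all 25422 features was 38.0%, 3884 of them higher and 5783 lower at P1. With each channel scaled to its 75th percentile instead, 5007 features were higher and 3093 lower, and the median of all features was 0.09 in place of -0.07. The median change of the 9 genes was -0.06. In the knockout animals 1 of the 9 genes changed with age, Avp, which was higher at P1, where 28.3% of all features were called, with 3307 higher and 3884 lower. Under the 75th percentile scaling the knockout animals had 4100 features higher and 2048 lower, and a median of 0.08 in place of -0.07.

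Pomc encodes the precursor of alpha-MSH, which lowers food intake, and in the pituitary that of the stress hormone ACTH. Its probe, named Pomc1 in the files, lies at chr12:3112630-3112689 in the coordinates of the array files, whose build is not given in the sources used here. Control animals had 107.7, 94.9, 113.1 and 96.8 units at P1, against 141.3, 164.0, 160.2, 160.8, 352.1 and 170.9 units at E15. Every P1 control lay below every E15 control. Pomc alone among the 9 genes had ages without overlap, in either direction, in controls. Of all 25422 features 29.5% had none in either direction, with 4338 features lower and 3151 higher at P1. The change was -0.82 (SE 0.22, 4 P1 numbers and 6 E15 animals, adjusted p = 0.0135 by limma). It was -0.77 from Cy3 channels alone (adjusted p = 0.0235) and -0.90 from Cy5 channels alone (adjusted p = 0.0171). It was -1.36 with the scanner's processed signals (adjusted p = 0.0020) and -1.17 with an offset of 10 (adjusted p = 0.0024).

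In the knockout animals Pomc stood at 102.1, 100.1, 116.1 and 102.1 units at P1, against 97.9 units at the lowest, 150.75 at the median and 304.2 at the highest of 8 E15 knockouts. The ages overlapped here, and 1 E15 knockout lay below all 4 P1 knockouts. The change of -0.49 (SE 0.24, adjusted p = 0.146 by limma) did not pass the threshold, and its 95% confidence interval from -1.02 to 0.03 holds the value of the controls.

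Pomc also differed between the scan days of E15. Channels of scan day 3 gave 92.6 to 146.4 units in knockouts and 107.1 to 174.5 units in controls, and those of days 1 and 2 gave 150.5 to 329.3 units in knockouts and 159.3 to 375.6 units in controls. E15 control 3 read 107.1 units on day 3, against 198.2 and 193.9 units on days 1 and 2. Set against the E15 channels of day 3 alone, the P1 controls differed by -0.42 (adjusted p = 0.0294 by limma), and against those of days 1 and 2 alone by -1.05 (adjusted p = 0.0042). The direction and the call held in each set, and the size varied by more than 2 times on the log2 scale. In knockouts the change was -0.14 against day 3 (adjusted p = 0.456) and -0.85 against days 1 and 2 (adjusted p = 0.0163).

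The highest Pomc signals, 304.2 units in E15 knockout 8 and 352.1 units in E15 control 5, were high in both channels of each animal, at 281.0 and 329.3 units in the knockout and at 375.6 and 330.0 units in the control. Pituitary markers read in the same animals did not all stand high with it. Tbx19, a transcription factor of the pituitary cells that make Pomc, had 76.5 units in that knockout, the lowest of its group, and 89.1 units in that control, within the 79.3 to 102.1 units of the controls. Cga, the shared subunit of the pituitary glycoprotein hormones, had 113.4 units in that knockout, again the lowest of its group, and 137.1 units in that control, where the controls ran from 101.8 to 171.6 units. Pitx1, active in the pituitary and also in the jaw and hindlimb, had 315.7 units in that knockout and 162.8 units in that control, and its highest value was 883.0 units in E15 control 1, where Pomc read 141.3 units. Across the 16 pituitary genes, 15 passed the filter on dim features, with 1 called higher and 2 lower at P1 in either genotype.

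Agrp encodes a protein that blocks the melanocortin receptors on which alpha-MSH acts and raises food intake. Its probe at chr8:104862792-104863008 gave 91.2 to 98.6 units in P1 knockouts and 88.2 to 97.4 units in P1 controls, against 92.2 to 115.1 units in E15 knockouts and 89.6 to 109.2 units in E15 controls. The ages overlapped in both genotypes. The change with age was -0.16 in knockouts (SE 0.07, adjusted p = 0.136 by limma) and -0.14 in controls (SE 0.07, adjusted p = 0.121), and both turned under the 75th percentile scaling, to 0.03 in knockouts and 0.06 in controls. Without E15 control 4 the change in controls was -0.18 (adjusted p = 0.0266).

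Cartpt encodes the CART peptides, which lower food intake. Its first probe, used for the tests, lies at chr13:96090920-96091909 and its second at chr13:96090930-96091919, so that the spans of both nearly coincide. The first gave 141.1, 166.0, 173.1 and 172.8 units in P1 controls, against 100.5 units at the lowest, 136.7 at the median and 166.1 at the highest of the E15 controls. The change of 0.32 (SE 0.15, adjusted p = 0.124 by limma) did not pass. It was 0.63 against E15 channels of scan day 3 (adjusted p = 7.6e-04) and 0.05 against those of days 1 and 2 (adjusted p = 0.742). From Cy3 channels alone it was 0.14 (adjusted p = 0.612) and from Cy5 channels alone 0.54 (adjusted p = 0.0801). In knockouts the change was -0.06 (SE 0.19, adjusted p = 0.828). The probes differed there: the knockout median was 129.3 units at P1 against 136.2 units at E15 by the first. By the second it was 144.3 units at P1 against 132.6 units at E15. The control median by the second probe was 144.6 units at P1 against 129.2 units at E15.

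Gal encodes galanin, made in hypothalamic neurons of several kinds and in the brainstem. Its probe at chr19:3199838-3199897 read 277.1, 352.0, 265.1 and 325.9 units in P1 controls, against 374.5, 526.2, 328.6, 406.0, 411.9 and 519.2 units in E15 controls. Only 1 of the E15 controls, at 328.6 units, lay within the range of P1. The change was -0.48 (SE 0.14, adjusted p = 0.0227 by limma). It was -0.53 from Cy3 channels alone (adjusted p = 0.0705) and -0.40 from Cy5 channels alone (adjusted p = 0.272), and neither passed.

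In knockouts Gal read 247.0, 377.9, 266.3 and 531.7 units at P1, against 349.6 units at the lowest, 423.05 at the median and 648.5 at the highest at E15. P1 knockouts 2 and 4 lay within the E15 range, and knockouts 1 and 3 lay below it. The change was -0.40 (SE 0.21, adjusted p = 0.180 by limma), and -0.62 without knockout 4 (adjusted p = 0.0444). The call in controls also ended without P1 control 1 or 3, and against the E15 channels of days 1 and 2 alone, where the change was -0.39 (adjusted p = 0.0814).

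Pmch encodes melanin-concentrating hormone, a peptide of the lateral hypothalamus that raises feeding and acts in sleep. Its probe at chr10:88064474-88064533 bears an older clone name in the E15 files. The change with age passed in neither genotype, at -0.06 in controls (SE 0.13, adjusted p = 0.749 by limma) and 0.20 in knockouts (SE 0.47, adjusted p = 0.782). In controls it depended on the scale: it was -0.97 with the scanner's processed signals, which passed (adjusted p = 0.0026), -0.45 with an offset of 10 (adjusted p = 0.0516) and 0.16 under the 75th percentile scaling (adjusted p = 0.334). From Cy3 channels alone it was -0.06 (adjusted p = 0.930) and from Cy5 channels alone -0.09 (adjusted p = 0.872). The single channels of P1 did not lie near those means.

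At P1 the Pmch channels fell into a high and a low set with nothing between 85.0 and 196.6 units. The 8 channels of the high set ran to 427.1 units and the 8 of the low set down to 58.0 units. Knockouts 1 and 3 were high in both dyes, at 427.1 and 296.6 units and at 358.4 and 208.6 units. Knockouts 2 and 4 were low in both, at 69.4 and 70.0 units and at 66.0 and 58.0 units. Every control number held 1 high and 1 low channel, at 353.7 and 85.0, 312.4 and 63.9, 196.6 and 78.2, and 197.7 and 59.0 units. So 4 knockout and 4 control channels were high. The averaged control values of 173.4, 141.3, 124.0 and 108.0 units lie in the gap and describe no single channel.

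At E15 no such gap was seen. The 8 knockouts ran from 63.2 units in knockout 8 to 238.5 units in knockout 6 with a median of 131.7, and the 6 controls ran from 121.2 to 161.0 units. In knockout 8 both channels were low, at 65.0 and 61.5 units, and in knockout 6 both were high, at 262.5 and 216.8 units.

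**Figure D2:**
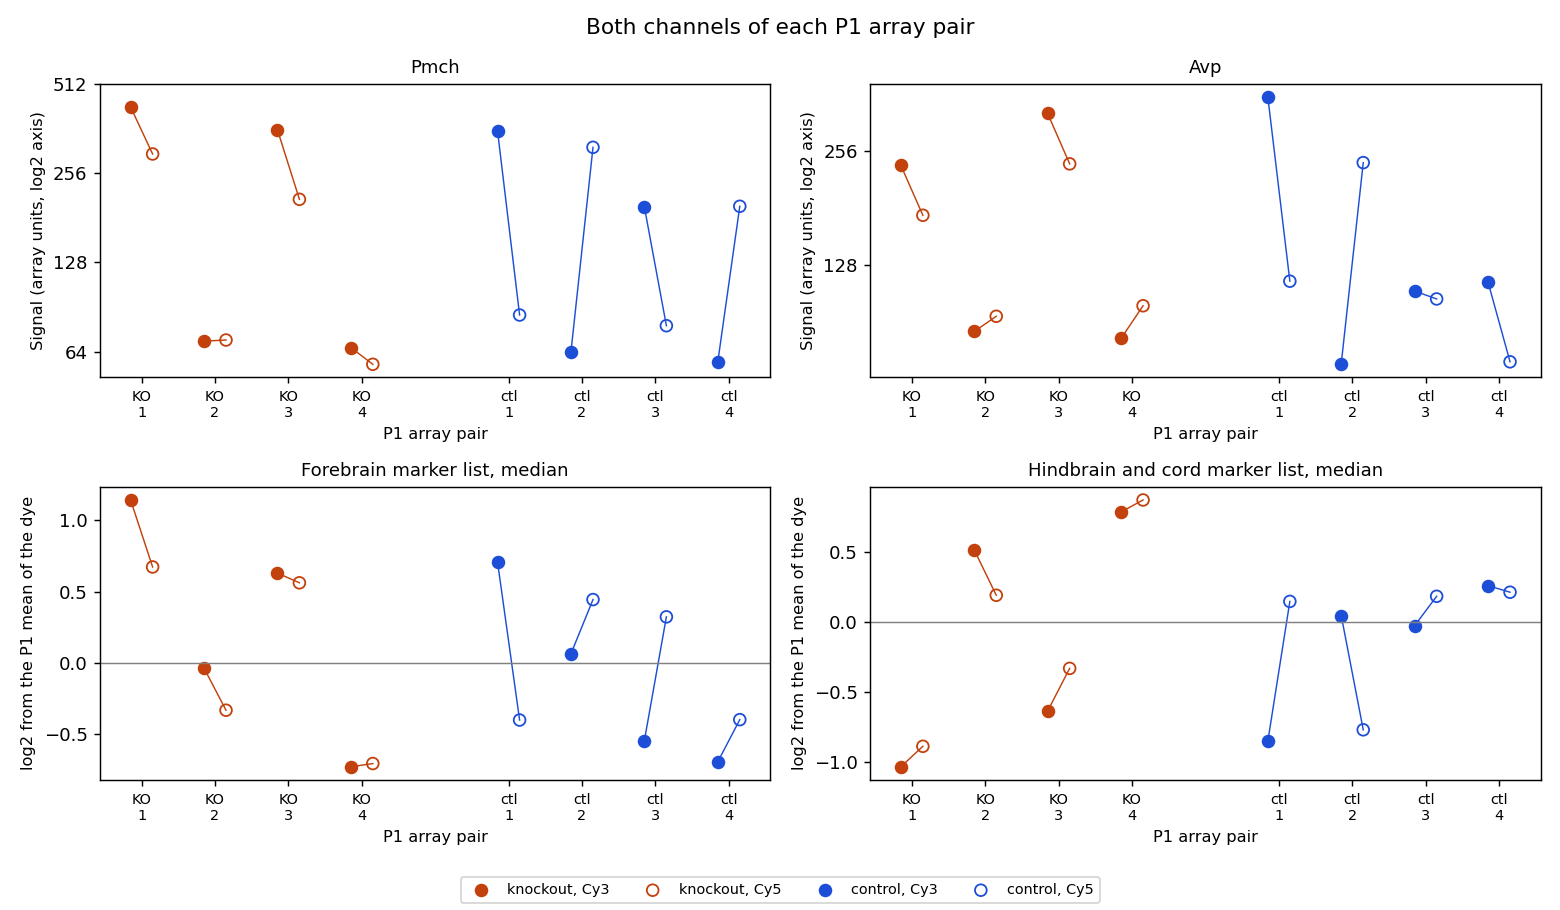
Signal of Pmch and Avp (array units, log2 axis) and median log2 deviation of 12 forebrain markers and of 11 hindbrain and cord markers from the P1 mean of the dye, in every channel of the P1 arrays, with knockouts left and controls right, filled points Cy3, open points Cy5 and a line joining the channels of a number. The knockout channels of a number lie close together, while control channels of a number lie apart in Pmch, as at 353.7 and 85.0 units in number 1.

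Markers of brain regions moved between the same P1 channels. The median of 12 forebrain markers, as a log2 deviation from the P1 mean of the dye, ran from 0.56 to 1.14 in knockouts 1 and 3 and from -0.73 to -0.04 in knockouts 2 and 4. That of 11 hindbrain and cord markers ran from -1.03 to -0.33 in knockouts 1 and 3 and from 0.19 to 0.87 in knockouts 2 and 4. Among the controls the forebrain median was 0.71 in the channel high in Pmch and -0.40 in the low one of number 1, 0.44 and 0.06 in number 2, and -0.40 and -0.70 in number 4. In number 3 it was -0.55 in the channel high in Pmch and 0.32 in the low one, so the order was turned. The hindbrain and cord median was lower in the channel high in Pmch in all 4 numbers. It was -0.85 there and 0.14 in the other channel of number 1, -0.77 and 0.04 in number 2, -0.03 and 0.18 in number 3, and 0.21 and 0.26 in number 4. The part of tissue composition in the Pmch signals was not tested.

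Hcrt encodes the precursor of the orexins, wake-promoting peptides of the lateral hypothalamus. Its probe at chr11:100582841-100582900 was usable in 2 P1 animals of each genotype after the outlier marks. Knockouts 3 and 4 gave 320.6 and 541.8 units and the controls 384.3 and 801.1 units at P1. At E15 the knockouts ran from 160.6 to 422.5 units with a median of 255.8, and the controls from 168.4 to 422.1 units with a median of 265.3. The change was 0.75 in knockouts (SE 0.33, adjusted p = 0.119 by limma) and 1.02 in controls (SE 0.40, adjusted p = 0.0723). In controls it passed with an offset of 10 (1.28, adjusted p = 0.0311), quantile normalization of channels (1.12, adjusted p = 0.0487) and the scanner's processed signals (1.37, adjusted p = 0.0292). From Cy3 channels alone it was 1.67 and from Cy5 channels alone 0.39. Each of these rests on 1 P1 control channel, 801.1 units in Cy3 and 384.3 units in Cy5, with no spread measured within P1.

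With the marked spots kept, P1 knockouts read 600.0, 562.1, 538.2 and 433.5 units and P1 controls 434.7, 509.0, 446.8 and 568.8 units. All 8 then lay above every E15 animal, by a narrow gap of 433.5 against 422.5 units. The share of all features without overlap was counted only with marked spots left out, at 18.6% in knockouts and 29.5% in controls. With marked spots left out, Hcrt overlapped between ages in both genotypes. With the marked spots kept, the change was 1.095 in knockouts (adjusted p = 0.0028 by limma) and 0.83 in controls (adjusted p = 0.0212), and both passed the threshold. Hcrt also differed between the E15 scan days, with ranges apart in controls and overlapping in knockouts. Channels of day 3 gave 238.9 to 434.3 units in knockouts and 347.9 to 456.1 units in controls. Those of days 1 and 2 gave 111.4 to 263.3 units in knockouts and 126.5 to 274.2 units in controls. With marked spots left out, the change in controls was 0.49 against day 3 (adjusted p = 0.186) and 1.47 against days 1 and 2 (adjusted p = 0.0080). It also passed without E15 control 1 or 2, and that in knockouts without E15 knockout 1 (0.86, adjusted p = 0.0490). Without P1 control 3 the change in controls was 1.55 and without P1 control 4 it was 0.49, each from 1 P1 value.

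Avp encodes vasopressin, the hormone of water retention made by large neurons of the supraoptic and paraventricular nuclei and by the suprachiasmatic clock. Its probe at chr2:130094670-130094935 read 201.7, 89.0, 276.8 and 90.0 units in P1 knockouts, against 64.8 units at the lowest, 87.7 at the median and 99.3 at the highest of the E15 knockouts. Knockouts 1 and 3 were high, and knockouts 2 and 4 lay within the E15 range. The change was 0.79 (SE 0.27, adjusted p = 0.0451 by limma), the only call among the 9 genes in knockout animals. None of the 9 genes had ages without overlap there, against 18.6% of all features.

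The Avp call depended on the setting. It held with the scanner's processed signals (1.54, adjusted p = 0.0156), an offset of 10 (1.21, adjusted p = 0.0210), the 75th percentile scaling (1.00, adjusted p = 0.0129), median centring (0.81, adjusted p = 0.0412) and outlier-marked spots kept (0.79, adjusted p = 0.0424). It held in 2 of 12 runs that each left out 1 animal. It ended without the filter on dim features (0.79, adjusted p = 0.0527), with quantile normalization of channels (0.78, adjusted p = 0.0524), Cy3 channels alone (0.76, adjusted p = 0.150) and either set of E15 scan days alone (0.85, adjusted p = 0.104, and 0.73, adjusted p = 0.161). With Cy5 channels alone it was 0.75 (adjusted p = 0.0282). In controls Avp read 203.3, 129.1, 106.2 and 90.1 units at P1, against 76.6 to 112.1 units at E15 with a median of 91.3, and the change of 0.46 (SE 0.21, adjusted p = 0.110) did not pass. It was 0.68 under the 75th percentile scaling (adjusted p = 0.0158) and 0.62 without P1 control 4 (adjusted p = 0.0481). From Cy3 channels alone it was 0.52 (adjusted p = 0.301) and from Cy5 channels alone 0.40 (adjusted p = 0.337).

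Single P1 channels of Avp split as those of Pmch did in the first 2 numbers. The knockout channels read 235.0 and 173.1 units in knockout 1 and 323.0 and 237.2 units in knockout 3, against 84.9 and 93.2 units in knockout 2 and 81.4 and 99.5 units in knockout 4. Control channels read 357.3 and 115.6 units in number 1 and 239.0 and 69.7 units in number 2, but 108.8 and 103.7 units in number 3 and 115.0 and 70.6 units in number 4. The median difference between the channels of a number was 0.37 on the log2 scale in knockouts and 1.17 in controls, and for Pmch it was 0.36 in knockouts and 1.90 in controls. For Pomc these values were 0.24 in knockouts and 0.17 in controls.

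Oxt encodes oxytocin, the hormone of birth and milk release made by neighbours of the vasopressin neurons. Its probe at chr2:130090619-130090762 gave 93.8 to 132.1 units in P1 knockouts and 97.0 to 127.2 units in P1 controls, against 100.1 to 144.5 units in E15 knockouts and 103.7 to 133.2 units in E15 controls. The changes with age of -0.12 in knockouts (SE 0.11, adjusted p = 0.448 by limma) and -0.14 in controls (SE 0.10, adjusted p = 0.303) did not pass, and both turned under the 75th percentile scaling, to 0.05 in knockouts and 0.06 in controls. Oxt in P1 knockouts had the order of Avp at its top, with 117.5 units in knockout 1 and 132.1 units in knockout 3, and 93.8 and 96.6 units in knockouts 2 and 4.

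Trh, with its probe at chr6:92691535-92691594, stayed between 61.9 and 78.8 units in all animals. Its changes with age were -0.04 in knockouts (SE 0.08) and 0.01 in controls (SE 0.07). At this signal, close to the floor, a difference between ages was not detectable.

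**Figure D3:**
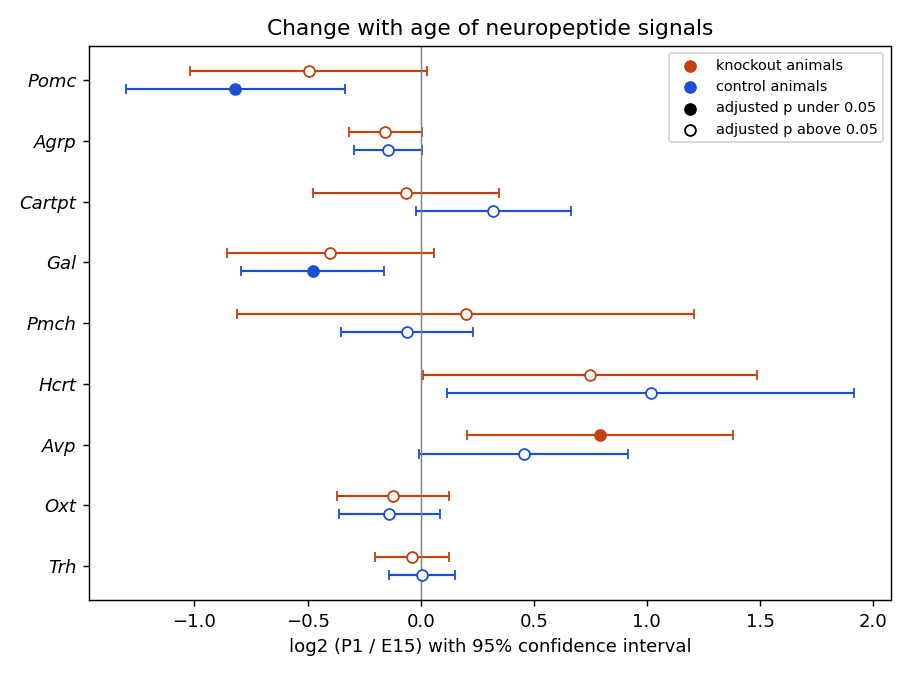
Log2 change from E15 to P1 of each neuropeptide gene in knockout animals (upper of each pair) and control animals (lower), with 95% confidence intervals, filled where the adjusted p is under 0.05. Filled points mark Avp at 0.79 in knockouts, and Gal at -0.48 and Pomc at -0.82 in controls.

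None of the 9 genes passed the test between knockout and control animals at either age. At P1 their adjusted p ran from 0.508 to 0.993 and 0 of 24502 features passed (0%), with 2297 features at an unadjusted p under 0.05, of which 1 (Hcrt) was among the 9 genes. At E15 their adjusted p ran from 0.722 to 0.960 and 0 of 24055 features passed (0%), with 1639 at an unadjusted p under 0.05, of which 0 were among the 9 genes. The median ratio of the 9 genes was 0.01 at P1 and -0.01 at E15, as was that of all features.

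Pomc, log2 of knockout over control, was -0.08, 0.08, 0.04 and 0.08 in the 4 replicates at P1, with a mean of 0.03 ± 0.07 (SD, n = 4). The signals were nearly the same in knockout and control brains, and the 95% confidence interval from -0.09 to 0.15 bounds a difference on this scale alone. P1 Pomc signals, from 94.9 to 116.1 units, lie near the floor, where ratios are drawn towards 0. A difference in RNA could therefore be larger than these ratios. At E15 it ran from -1.06 to 0.63 with a mean of -0.25 ± 0.50 (SD, n = 8), and 6 of 8 replicates lay below 0. The extremes were replicate 6, whose control had the 352.1 units, and replicate 8, whose knockout had the 304.2 units.

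Pmch gave 1.04, -1.02, 1.14 and -0.80 in the P1 replicates, a mean of 0.09 ± 1.16 (SD, n = 4). Replicates 1 and 3 lay high and 2 and 4 low. The arrays behind these values differed by dye: with the knockout in Cy3 the ratios were 2.33, -2.17, 2.20 and -1.58, and with the knockout in Cy5 they were -0.25, 0.13, 0.09 and -0.03. On the arrays with the knockout in Cy5, knockout and control were both high or both low. At E15 the ratios ran from -1.36 in replicate 8 to 0.67 in replicate 6, with a mean of -0.16 ± 0.60 (SD, n = 8).

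Median ratios of regional marker lists moved alongside. In P1 replicates 1 to 4 the median of the forebrain markers was 0.61, -0.45, 0.63 and -0.17, and that of the hindbrain and cord markers was -0.66, 0.39, -0.79 and 0.81. Pmch had the sign of the forebrain median in all 4. In E15 replicate 8 the forebrain median was -1.12, the hindbrain and cord median 1.01 and the meninges and fibroblast median 2.49, beside a Pmch ratio of -1.36. The skeletal muscle median was 3.11 in that replicate. In E15 replicate 4 the muscle median was -3.45, beside a Pmch ratio of 0.03. In E15 replicate 6 the forebrain median was -0.37, beside a Pmch ratio of 0.67. The part of these tissues in the ratios was not tested.

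Avp gave -0.01, -0.54, 1.38 and -0.00 in the P1 replicates, a mean of 0.21 ± 0.82 (SD, n = 4), so that replicate 3 stood alone above 0. By dye, its ratios were 1.02, -1.49, 1.64 and 0.21 with the knockout in Cy3, and -1.05, 0.42, 1.12 and -0.21 with the knockout in Cy5. Only replicate 3 was above 0 by more than 1 in both. At E15 the mean was -0.09 ± 0.24 (SD, n = 8), with 2 replicates above 0 and 6 below.

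Cartpt had the lowest P1 mean among probes read in all 4 replicates. Its first probe gave -0.58, -0.08, -0.77 and 0.09 at P1 (mean -0.33 ± 0.41, SD, n = 4; adjusted p = 0.577 by limma), and the second gave -0.34, 0.23, -0.60 and 0.60 (mean -0.03 ± 0.54). Both probes put replicates 1 and 3 low and 4 high, opposite to Pmch. At E15 the means were 0.07 ± 0.33 and 0.03 ± 0.29 (SD, n = 8), and replicate 4 was highest by both probes, at 0.62 and 0.55. The P1 ratio minus the E15 ratio was -0.41 for the first probe (SE 0.21, p = 0.0759, adjusted p = 0.859 by limma), the lowest p among the 9 genes, none of which passed. Of all 23474 features, 0.366% passed that test of a difference between ages.

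Gal gave -0.17, 0.10, 0.01 and 0.71 at P1, a mean of 0.16 ± 0.38 (SD, n = 4), with replicate 4 apart. Its arrays gave 0.46 and 0.95 in that replicate, so both dyes agree there in sign. At E15 the mean was 0.10 ± 0.24 (SD, n = 8), with 5 replicates above 0 and 3 below. Within scan day 3 it was 0.21 ± 0.14 and within days 1 and 2 -0.01 ± 0.28 (SD, n = 4 each).

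Hcrt gave -0.26 and -0.56 in the 2 readable P1 replicates (mean -0.41 ± 0.21, SD, n = 2), and its adjusted p was 0.508 by limma. With marked spots kept, the 4 replicates gave 0.46, 0.14, 0.27 and -0.39, so that the mean of 0.12 turned the direction. At E15 the mean was -0.18 ± 0.29 (SD, n = 8). It was -0.39 ± 0.28 within scan day 3 and 0.02 ± 0.07 within days 1 and 2 (SD, n = 4 each).

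The remaining genes stayed near 0. Agrp had a mean of 0.01 ± 0.06 at P1 (SD, n = 4) and 0.01 ± 0.09 at E15 (SD, n = 8). Oxt had 0.01 ± 0.28 at P1, where replicate 3 gave 0.40, and -0.01 ± 0.14 at E15. Trh had -0.05 ± 0.08 at P1 and -0.01 ± 0.10 at E15. Agrp and Trh signals, like those of Pomc at P1, lie near the floor, where ratios are drawn towards 0. The same limit holds for Oxt, at 93.8 to 132.1 units in P1 knockouts and 97.0 to 127.2 units in P1 controls. It also holds for Avp at E15, at 64.8 to 99.3 units in knockouts and 76.6 to 112.1 units in controls.

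**Figure D4:**
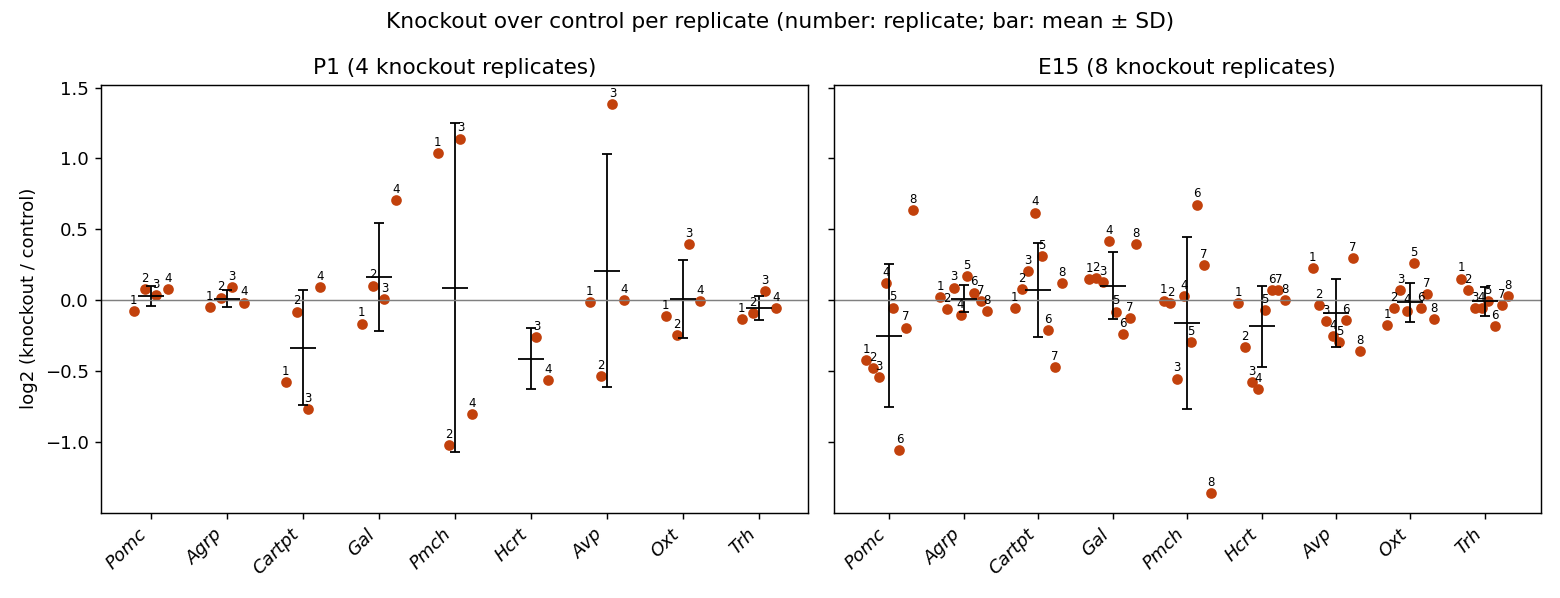
Log2 ratio of knockout over control per replicate for each neuropeptide gene at P1 (left) and E15 (right), with the replicate number above each point and a bar at the mean ± SD. At P1 Pmch splits into replicates 1 and 3 near 1 and replicates 2 and 4 near -1, while Pomc stays within 0.08 of 0.

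The machinery around these peptides was measured by 4 lists, chosen from textbook knowledge. Of their genes 0 passed by limma in a comparison of knockout with control at either age. At an unadjusted p under 0.05 there were, at P1 and E15, 2 and 1 receptors, 1 and 2 processing genes, 1 and 2 transcription factors, and 0 and 1 other peptides. Most changes were with age and are given for knockouts first, with the share called among all features of 28.3% in knockouts and 38.0% in controls standing as above.

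Of the 20 receptors of these peptides, 5 were higher and 4 lower at P1 in knockouts and 5 higher and 5 lower in controls. The largest change was in Oxtr, the oxytocin receptor. Its signal was 375.3 units in the 1 readable P1 knockout and 402.0 units in the 1 readable P1 control, against 58.9 to 65.1 units in E15 knockouts and 59.2 to 63.7 units in E15 controls. With spots marked as outliers kept, P1 knockouts had 365.3 to 521.7 units and P1 controls 365.2 to 402.0 units. With those spots kept, its changes were 2.74 in knockouts (adjusted p = 9.1e-11 by limma) and 2.64 in controls (adjusted p = 1.8e-10). At P1 these values rest mostly on marked spots, and marks were more frequent on P1 arrays. Without them they were 2.61 and 2.71, values from 1 P1 animal each, with no spread measured within P1.

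Trhr, the receptor of thyrotropin-releasing hormone, also rose, by 0.72 in knockouts (adjusted p = 7.1e-04) and 0.97 in controls (adjusted p = 1.9e-04), on 3 P1 animals each. With the marked spots kept it rose by 1.26 in knockouts (adjusted p = 7.9e-08) and 1.19 in controls (adjusted p = 5.3e-07). Mc3r, a melanocortin receptor of the hypothalamus, was at 167.4 to 204.6 units in P1 knockouts and 180.5 to 205.6 units in P1 controls, against 219.9 to 675.0 units in E15 knockouts and 210.0 to 631.7 units in E15 controls. It changed by -1.23 in knockouts (adjusted p = 0.0041) and by -1.099 in controls (adjusted p = 0.0146) on the log2 scale. Crhr2, a receptor of the CRH family, fell by 0.70 in knockouts (adjusted p = 0.0102) and by 0.75 in controls (adjusted p = 0.0059). Mc4r, through which alpha-MSH lowers food intake, changed by -0.63 in knockouts, which missed the threshold (adjusted p = 0.0529), and by -0.52 in controls (adjusted p = 0.0235). Crhr1, the main CRH receptor of the brain, rose by 0.61 in knockouts (adjusted p = 0.0142) and 0.41 in controls (adjusted p = 0.0186). So Oxtr rose while the Oxt probe itself showed no called change.

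Of 18 genes for cutting peptide precursors and storing them in granules, 5 rose and none fell in knockouts, with a median change of 0.22, and 9 rose and none fell in controls, with a median of 0.37. Chga, the granule protein chromogranin A, rose by 1.03 in knockouts (adjusted p = 0.0069 by limma) and 1.15 in controls (adjusted p = 8.4e-07). Cadps, which readies granules for release, rose by 1.07 in knockouts (adjusted p = 1.9e-04) and 1.28 in controls (adjusted p = 1.2e-04). Scg2, the secretogranin II gene, was at 0.39 in knockouts (adjusted p = 0.155) and rose by 1.00 in controls (adjusted p = 0.0015). Cpe, which trims cut peptides, was at 0.37 in knockouts (adjusted p = 0.214) and rose by 0.69 in controls (adjusted p = 0.0133). Pcsk1n, an inhibitor of a prohormone convertase, rose by 0.76 in knockouts (adjusted p = 0.0345) and was at 0.43 in controls (adjusted p = 0.0591). A call in 1 genotype alone does not show that the genotypes differed. Neuronal markers moved the same way: of 10, 3 rose and none fell in knockouts, and 6 rose and none fell in controls, with medians of 0.32 and 0.48.

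Other peptides of hypothalamic neurons gave 4 higher and 1 lower of 21 in knockouts and 3 higher and 3 lower in controls. Sst, the somatostatin precursor, had 1272 to 2924 units in P1 knockouts and 1718 to 2398 units in P1 controls, against 684.8 to 1259 units in E15 knockouts and 783.2 to 1237 units in E15 controls. It rose by 1.06 in knockouts (adjusted p = 0.0047) and 1.105 in controls (adjusted p = 1.5e-04). Nts, the neurotensin precursor, was at 1.02 in knockouts (adjusted p = 0.0991) and rose by 1.24 in controls (adjusted p = 0.0066). Npy, the feeding peptide made beside Agrp, rose by 0.77 in knockouts (adjusted p = 0.0416) and was at 0.46 in controls (adjusted p = 0.129). Gnrh1, the peptide that drives the reproductive axis, rose with the marked spots kept by 1.42 in knockouts (adjusted p = 2.1e-06) and 1.23 in controls (adjusted p = 6.2e-07). Without those spots it was at 1.18 and 1.34, values from 1 P1 animal each. Tac2, the neurokinin B precursor, changed by -0.32 in knockouts, which did not pass (adjusted p = 0.151), and by -0.57 in controls (adjusted p = 0.0095).

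Of 26 transcription factors of hypothalamic development, 3 rose and 8 fell in knockouts, with a median of -0.32, and 3 rose and 12 fell in controls, with a median of -0.36. Dbx1, of progenitor cells, changed by -1.64 in knockouts (adjusted p = 0.0018) and by -1.59 in controls (adjusted p = 2.0e-04). Isl1, which acts in Pomc neurons of mice, fell by 0.99 in knockouts (adjusted p = 0.0199) and by 1.14 in controls (adjusted p = 0.0054), and Lhx9, a factor of Hcrt neurons in mice, fell by 1.104 in knockouts (adjusted p = 0.0104) and by 0.95 in controls (adjusted p = 0.0109). Rax, of the tanycytes that line the third ventricle, rose by 1.23 in knockouts (adjusted p = 2.5e-04) and 1.08 in controls (adjusted p = 0.0018), on 2 P1 animals each.

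Markers of meninges and connective tissue fell with these factors, 2 of 14 in knockouts and 6 of 14 in controls, with medians of -0.86 and -1.03. Of 8 markers of the thalamus and its surroundings, 2 rose and 6 fell in knockouts and 2 rose and 5 fell in controls. The part of tissue composition in these age changes was not tested.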

How the data were processed

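RNA of whole brains was measured on 22 Agilent arrays of 2 colours. Mean spot intensity and local background intensity per channel were deposited without normalization, as Feature Extraction 8.1.1.1 (E15) and 8.5.1.1 (P1) wrote them, per the file headers. As for the log10 ratios of Cy5 over Cy3 that were deposited too, they served as an alternative and lie within 0.005 of the scanner files' ratios. No column of another series was found (0 not mapped). Steps before the scan beyond those in the labels' protocols are not given in the sources used here.

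Intensities were corrected by normexp with an offset of 50, normalized by loess within arrays, and turned to knockout over control. Spots marked as outliers were left out. Arrays of a replicate were averaged. For E15 replicates 3 and 4, with 1 array each, an average dye effect, taken from the remaining E15 replicates, was removed. Channel levels came from Aquantile normalization and were averaged per animal. Each gene was read by its brightest probe, and features well above background in at least 50% of channels of the age were tested. Fits used limma 3.58.1, statmod 1.5.0 and the data.table package 1.17.8 in R 4.3.3, with sets of arrays that share controls as a random block at E15 (consensus correlation 0.0363) and in the difference of ages (0.0763). The scripts were tested on simulated data. Signal over background and the number of arrays limit the precision, and nothing says whether samples of a group came from separate litters.

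Every gene of the list is named. From lists of related genes at most 6 with the largest change among those called were eligible, or 2 with the smallest p, and at most 3 from lists of other tissues. The genes and lists were chosen with earlier results of these data known. Replicate numbers were checked for pairing across ages: correlations of -0.13, -0.07, 0.11 and 0.14 do not pair the samples.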

Additional observations from a re-analysis of the deposited data

Results flagged for a closer look

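Of 57 groups of 4 to 10 samples tested for a value far from the rest, 3 had one, and chance alone would give about 2.85. Pomc read 352.1 units in E15 control 5, far above the next highest control at 170.9 units. Pomc read 116.1 units in P1 knockout 3, against 102.1 units in the next. Agrp read 89.6 units in E15 control 4, below the next lowest control at 102.9 units.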

How the results depend on the processing

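Over the 9 genes and 5 comparisons, 493 results under other settings and 412 with 1 animal left out were compared with the 45 reported. Other settings turned the direction in 40 cases, ended a call in 8 and made one in 11, and leaving out 1 animal did so in 32, 12 and 7. No turned value passed the threshold. The fall of Pomc in controls was called in every setting run.

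With scanner processed signals, turned values were -0.00143 for Trh in controls between ages, -0.068 for Pmch and 0.020 for Trh in knockouts between ages, and 0.030 for Trh in the difference of ages. Then 4 of the genes were called between ages in controls, among them Pmch (-0.97, adjusted p = 0.0026) and Hcrt (1.37, adjusted p = 0.0292), and 1 feature was called between knockout and control at E15, as with deposited log ratios, where Trh in the difference was 0.030. Features called for the difference of ages numbered 0 with processed signals, an offset of 10, deposited ratios or outlier-marked spots kept, 164 without the filter on dim features and 26 without the E15 animals of 1 dye orientation. With median centring, Oxt was -0.0092 at P1 and 0.021 at E15, Agrp -0.040 at P1, and the differences of Gal and Oxt -0.043 and -0.031. With 75th percentile scaling, the age change was 0.052 for Cartpt, 0.032 for Agrp, 0.054 for Oxt and 0.17 for Trh in knockouts, and 0.16 for Pmch, 0.064 for Agrp and 0.059 for Oxt in controls. With marked spots kept, Hcrt was 0.12 at P1 and its difference 0.30. Without the control-sharing block the difference of Agrp was 0.00069. Without the E15 animals of 1 orientation Cartpt was -0.032 at E15. Genes called between ages in knockouts numbered 0 with quantile normalization, without the filter, with Cy3 channels alone or with E15 scan day 3, and 2 with marked spots kept or E15 scan days 1 and 2.

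The settings by scan day and dye were chosen after seeing the data. At E15, scan day 3 alone gave -0.015 for Agrp and 0.029 for Trh, and days 1 and 2 alone gave -0.011 for Gal, -0.063 for Cartpt, 0.029 for Oxt and 0.019 for Hcrt. The age change of controls against E15 scan day 3 was 0.065 for Pmch and -0.0060 for Trh, and against days 1 and 2 -0.00505 for Trh, and that of Cartpt in knockouts against day 3 was 0.093. Cy3 channels alone gave 1 gene called in controls, 0.068 for Cartpt in knockouts and -0.027 for Trh in controls. Cy5 channels alone gave 1 gene and 5541 features called in controls, and -0.0054 for Pmch in knockouts. P1 arrays with the knockout in Cy5 gave -0.016 for Pmch, -0.076 for Pomc and -0.071 for Agrp, and are not corrected for dye. The cause of these shifts was not tested.

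Leaving out 1 animal in turn gave 0 to 2 genes called between ages in knockouts, 1 to 3 in controls, 43 to 160 features for the difference of ages and 0 to 1 feature at E15. The age change ran from -0.24 to 0.60 for Pmch and -0.24 to 0.085 for Cartpt in knockouts, and from -0.18 to 0.046 for Pmch and -0.033 to 0.062 for Trh in controls. At P1 the ratio ran from -0.019 to 0.27 for Gal, -0.26 to 0.46 for Pmch, -0.18 to 0.46 for Avp, -0.015 to 0.030 for Agrp and -0.12 to 0.092 for Oxt. At E15 it ran from -0.28 to 0.012 for Pmch, -0.0069 to 0.15 for Cartpt, -0.013 to 0.031 for Agrp, -0.054 to 0.0056 for Oxt and -0.029 to 0.016 for Trh. The difference of ages ran from -0.11 to 0.18 for Gal, -0.11 to 0.61 for Pmch, -0.091 to 0.55 for Avp, -0.028 to 0.023 for Agrp and -0.11 to 0.10 for Oxt.

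Numbers 1 to 4 recur at both ages but do not pair the animals. With the replicate block the difference of ages had 0 features called, and was -0.051 for Gal, 0.026 for Agrp and 0.19 for Hcrt. A block of scan day or slide at P1 was not run, since all P1 arrays share 1 scan day.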
